A study of Rattus norvegicus with 14 samples.

Results

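The genes described here build or cross-link the elastic fibre of the arterial wall: Eln, Fbn1, Fbln1, Fbln5, Ltbp1, Ltbp2, Emilin1, Mfap4, Lox and Loxl1. They were chosen by name, with earlier results of these data known. Every probe set whose only annotated symbol was one of these was taken. This gave 14 probe sets for 10 of the 14217 genes named on the array. Where a gene had a pair of probe sets, the one with the higher mean over all arrays stands for the gene and is called its first probe set. Transcript levels were measured in the thoracic aorta of Sprague-Dawley rats, with 1 array per sample, in 8 samples labelled A-CRF and 6 labelled Control. A-CRF stands for chronic renal failure brought on by adenine, which forms crystals in the kidney tubules. All samples share strain and tissue. The labels used here give no adenine dose, duration, age or sex, and do not say whether the samples came from different rats, so p-values describe only how far these samples scatter, and some of that scatter may be technical.

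An elastic fibre is a core of cross-linked elastin laid down on a scaffold of fibrillin microfibrils. Fibulins and other small glycoproteins bring elastin to that scaffold, and lysyl oxidases join the elastin chains by oxidising their lysine side chains. In the aorta the fibres form concentric sheets between layers of smooth muscle, let the wall recoil after each heartbeat, and are laid down mainly in early life. Microfibrils also hold latent TGF-beta through LTBP proteins.

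Values are on the log2 scale, where a difference of 1 is a 2-fold difference, and ran from 4.82 to 12.64 over the table. Values of different probe sets were not set against each other. Of the smooth muscle markers of the aortic wall, the myosin heavy chain gene Myh11 averaged 11.58 in A-CRF and 11.87 in Control (8 and 6 arrays). On A-CRF 1, A-CRF 4 and Control 1 the signal from the 3' end of GAPDH exceeded that from its 5' end by 1.90, 1.63 and 1.58 log2 units, against 0.37 to 0.55 on the other arrays (arrays are numbered within a group in the order of deposit). This difference is in common use as a measure of RNA integrity. The difference averaged 0.74 ± 0.64 over the 8 A-CRF arrays (SD) and 0.67 ± 0.45 over the 6 Control arrays (SD; exact permutation test, two-sided, p = 0.98). These arrays are kept below, and counts and calls of the genes named are also given without them where they differ.

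The comparison of A-CRF with Control asks which of these transcripts differ in the aorta in renal failure. Ltbp2, Lox, Fbn1, Loxl1 and Ltbp1 were higher in A-CRF, by 2.12-fold, 1.67-fold, 1.44-fold, 1.39-fold and 1.30-fold. Elastin itself and the microfibril-associated Mfap4 had raised means but did not pass the test over all arrays, and Fbln5, Fbln1 and Emilin1 did not pass either. Thus 5 of the 10 genes were higher and 0 lower at an adjusted p under 0.05 (limma, Benjamini-Hochberg over all 31042 probe sets), against 1.93% higher and 1.06% lower among all 14217 genes. The 10 genes were chosen with earlier results of these data known, so these shares are no test of them as a set. All 10 had a Control mean more than 1 log2 unit above the lowest value, against 8123 of all 14217 genes. At an unadjusted p under 0.05, 7 of the 10 were higher and 1 lower, against 9.74% and 8.88% of all genes. A positive change was found for 8 of the 10, against 48.8% of all genes. The median change of the 10 genes was 0.45 log2 units, against -0.0012 over all genes. Of their 14 probe sets 8 passed, 7 higher and 1 lower, against 2.05% of all probe sets in either direction, 1.26% higher and 0.789% lower. The shares beside the next counts are of probe sets, and compare with 1.26% higher over all arrays with group as the only factor. Without A-CRF 1, A-CRF 4 and Control 1 the count of higher genes was 6, where 1.82% of all probe sets were higher. It was 7 with the GAPDH difference as a covariate, where 1.98% were higher, and 3 without Control 4. With a score of circadian clock genes as a covariate it was 1, Fbn1, where 0.303% were higher.

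**Figure D1:**
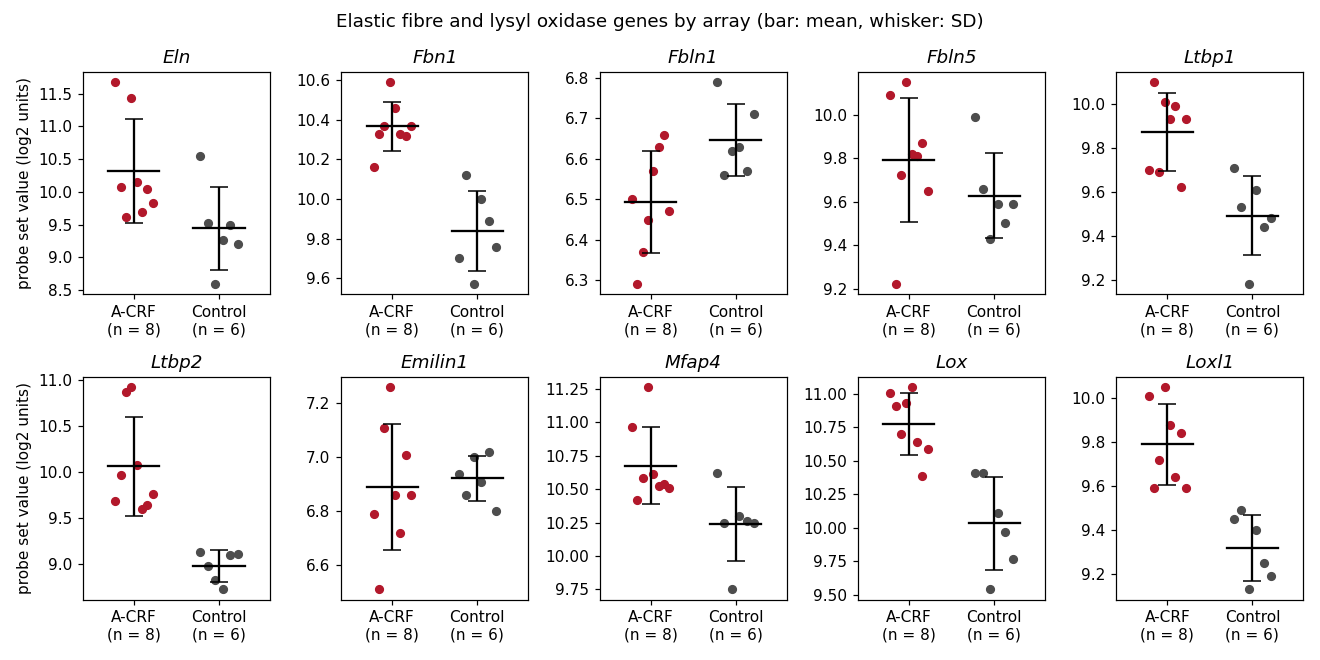
Probe set values (log2 units) of the 10 genes on each A-CRF array (red, left, n = 8) and each Control array (grey, right, n = 6), each gene on its own axis. Long bars are group means and whiskers are SDs; the groups do not overlap for Fbn1, Ltbp2 and Loxl1.

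Eln encodes tropoelastin, the soluble precursor of the elastic core, and was measured by 2 probe sets that did not behave alike. The first probe set ran from 9.61 to 11.68 in A-CRF (median 10.06, 8 arrays) and from 8.59 to 10.55 in Control (median 9.39, 6 arrays). The groups overlapped, and the change was 0.87 ± 0.37 log2 units (SE, limma adjusted p = 0.28), with a 95% confidence interval of 1.06-fold to 3.16-fold. The highest values of this probe set were those of A-CRF 1 (11.68) and A-CRF 4 (11.44) in A-CRF and of Control 1 (10.55) in Control, the arrays with the large GAPDH difference. On the other arrays it read 9.61 to 10.15 in A-CRF and 8.59 to 9.53 in Control, and there the groups did not overlap. Without A-CRF 1, A-CRF 4 and Control 1 the change was 0.68 ± 0.16 (SE, adjusted p = 0.051), just short of the threshold, and with the GAPDH difference as a covariate it was 0.79 ± 0.14 (SE, adjusted p = 0.012).

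The second Eln probe set ran from 8.11 to 9.50 in A-CRF (median 8.66) and from 7.26 to 9.19 in Control (median 8.32). Its groups overlapped along most of their range, with a change of 0.39 ± 0.29 (SE, adjusted p = 0.63). Here Control 1 was the lowest of all 14 arrays, at 7.26, and A-CRF 1 (8.67) and A-CRF 4 (8.66) lay in the middle of their group. The fitted slope on the GAPDH difference was 1.2 ± 0.13 log2 units per unit for the first probe set (SE, adjusted p = 8.9e-05) and -0.34 ± 0.26 for the second (SE, adjusted p = 0.52). Where each probe set lies along the Eln transcript was not examined. Without A-CRF 1, A-CRF 4 and Control 1 the second probe set had a change of 0.19 ± 0.29 (SE, adjusted p = 0.86).

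**Figure D2:**
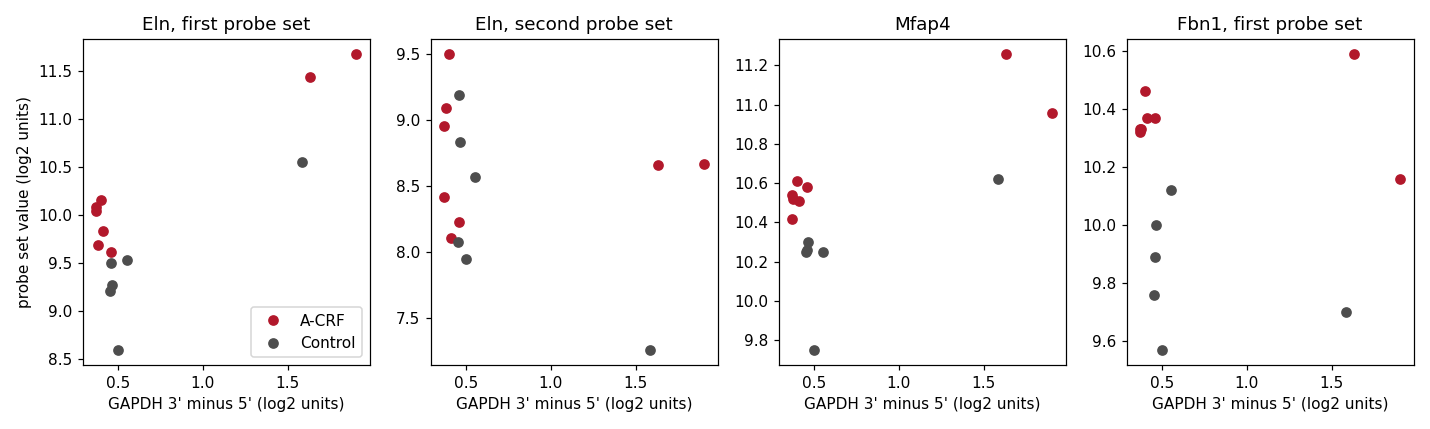
Probe set values (log2 units, vertical axes) of both Eln probe sets, Mfap4 and the first Fbn1 probe set against the GAPDH 3' minus 5' difference of the same array (log2 units, horizontal axes), for 8 A-CRF (red) and 6 Control arrays (grey). The first Eln probe set and Mfap4 read highest in each group on the 3 arrays to the right, whereas the second Eln probe set does not and Fbn1 on Control 1 lies low in its group.

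Among microfibril genes, Fbn1 encodes fibrillin-1, the main building block of the microfibril, and it was higher in A-CRF on both of its probe sets. The first probe set ran from 10.16 to 10.59 in A-CRF (median 10.35) and from 9.57 to 10.12 in Control (median 9.83), so the groups did not overlap. The mean was 10.37 ± 0.12 over the 8 A-CRF arrays (SD) and 9.84 ± 0.20 over the 6 Control arrays (SD), a change of 0.53 ± 0.08 log2 units (SE, limma adjusted p = 0.0078). The second probe set gave 0.54 ± 0.08 (SE, adjusted p = 0.0080), with 10.01 to 10.38 in A-CRF and 9.31 to 9.90 in Control, again without overlap. Fbn1 passed in all 14 fits that left out 1 array (highest adjusted p = 0.020) and in all 13 other alternatives (highest 0.038).

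Mfap4, a microfibril-associated glycoprotein that binds elastin and collagen, ran from 10.42 to 11.26 in A-CRF (median 10.56) and from 9.75 to 10.62 in Control (median 10.25). Its highest values in each group were again those of A-CRF 4 (11.26), A-CRF 1 (10.96) and Control 1 (10.62). On the remaining arrays A-CRF read 10.42 to 10.61 and Control 9.75 to 10.30, without overlap. The change was 0.44 ± 0.14 log2 units over all arrays (SE, adjusted p = 0.14), 0.37 ± 0.09 without those 3 arrays (SE, adjusted p = 0.048) and 0.41 ± 0.09 with the GAPDH covariate (SE, adjusted p = 0.023). Its fitted slope on the GAPDH difference was 0.41 ± 0.08 (SE, adjusted p = 0.0059).

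Emilin1, a glycoprotein at the interface of elastin and microfibrils, ran from 6.51 to 7.26 in A-CRF (median 6.86) and from 6.80 to 7.02 in Control (median 6.92). The A-CRF values lay on both sides of the Control range, and the change was -0.03 ± 0.09 log2 units (SE, adjusted p = 0.95). The 95% confidence interval, 0.851-fold to 1.12-fold, leaves room for changes of either sign within those bounds.

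The LTBP genes encode proteins of the fibrillin superfamily that sit on microfibrils. Ltbp2 differs from Ltbp1 in that its protein does not bind latent TGF-beta. Ltbp2 had the largest change of the 10 genes. It ran from 9.59 to 10.92 in A-CRF (median 9.86) and from 8.72 to 9.13 in Control (median 9.04), without overlap. The mean was 10.06 ± 0.54 over the 8 A-CRF arrays (SD) and 8.98 ± 0.17 over the 6 Control arrays (SD). The rise was uneven, with A-CRF 3 (10.87) and A-CRF 4 (10.92) far above the other A-CRF arrays, which read 9.59 to 10.07. The change was 1.09 ± 0.21 log2 units (SE, adjusted p = 0.020), with a 95% confidence interval of 1.55-fold to 2.92-fold, and the call was lost without Control 4 (adjusted p = 0.051).

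Ltbp1, which tethers latent TGF-beta to the matrix, ran from 9.62 to 10.10 in A-CRF (median 9.93) and from 9.18 to 9.71 in Control (median 9.51). The groups overlapped at A-CRF 1, 3 and 7 (9.70, 9.69 and 9.62) and Control 1 (9.71). The change was 0.38 ± 0.09 log2 units (SE, adjusted p = 0.046), close to the threshold. The call held in 3 of the 14 fits without 1 array, those without A-CRF 1, A-CRF 7 or Control 1, and was lost in the others (highest adjusted p = 0.10).

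Fibulins are matrix glycoproteins that bind elastin and other fibre proteins, and neither Fbln5 nor Fbln1 was higher in A-CRF at the threshold. Fbln5, needed for elastic fibre assembly in the mouse, ran from 9.22 to 10.15 in A-CRF (median 9.81) and from 9.43 to 9.99 in Control (median 9.59). The A-CRF range spans the Control range, since A-CRF 2 (9.22) was the lowest of all arrays and A-CRF 4 (10.15) the highest. The change was 0.17 ± 0.13 log2 units (SE, adjusted p = 0.65), with an interval of 0.928-fold to 1.36-fold.

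Fbln1 was the one gene of the 10 with a lower mean on 2 probe sets. The first probe set ran from 6.29 to 6.66 in A-CRF (median 6.49) and from 6.56 to 6.79 in Control (median 6.63). The groups overlapped, and the change was -0.15 ± 0.06 log2 units (SE, adjusted p = 0.19). The second probe set ran from 5.94 to 6.31 in A-CRF and from 6.24 to 6.48 in Control, fell by 0.22 ± 0.05 (SE) and passed (adjusted p = 0.046). That call ended without A-CRF 1, A-CRF 4 and Control 1 (adjusted p = 0.070) and with a score of circadian clock genes as a covariate (0.135).

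Lox and Loxl1 encode copper-dependent lysyl oxidases, and both were higher in A-CRF. Lox, which cross-links elastin and fibrillar collagens, ran from 10.39 to 11.05 in A-CRF (median 10.81) and from 9.54 to 10.41 in Control (median 10.04) on its first probe set. The groups overlapped at 1 array of A-CRF, A-CRF 7 at 10.39, below Control 1 and Control 2 at 10.41 each. The change was 0.74 ± 0.14 log2 units (SE, adjusted p = 0.020). The second probe set did not overlap between groups, with 10.38 to 10.97 in A-CRF and 9.21 to 10.19 in Control, and gave 0.90 ± 0.16 (SE, adjusted p = 0.014). Lox passed in each of the 14 fits without 1 array (highest adjusted p = 0.0496).

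Loxl1, a lysyl oxidase whose loss in the mouse impairs the renewal of elastic fibres, ran from 9.59 to 10.05 in A-CRF (median 9.78) and from 9.13 to 9.49 in Control (median 9.33). The groups did not overlap. The mean was 9.79 ± 0.18 over the 8 A-CRF arrays (SD) and 9.32 ± 0.15 over the 6 Control arrays (SD), a change of 0.47 ± 0.09 log2 units (SE, adjusted p = 0.014). The call held in each of the 14 fits without 1 array (highest adjusted p = 0.039). Loxl1 and Fbln5 also followed the GAPDH difference, with slopes of 0.21 ± 0.06 (SE, adjusted p = 0.044) and 0.34 ± 0.08 (SE, adjusted p = 0.019), which made 4 of the 14 probe sets with Eln and Mfap4, against 8.59% of all probe sets.

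**Figure D3:**
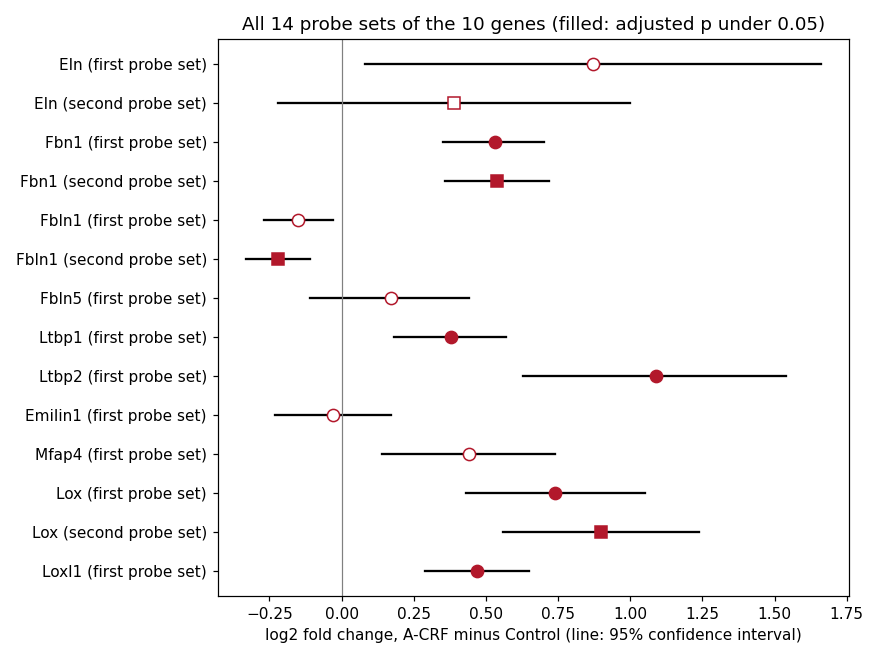
Log2 fold changes, A-CRF minus Control, for the 14 probe sets (circles, first probe set of a gene; squares, second), with 95% confidence intervals as lines and filled symbols for an adjusted p under 0.05. Both probe sets of Fbn1 and of Lox are filled and to the right of 0, the Eln intervals are the widest, and Fbln1 lies to the left of 0.

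The promoters of Ltbp1 and Loxl1 are shown because these are the genes among the 5 higher ones whose RefSeq promoter entry (build GRCr8) reaches at least 200 bases beyond the annotated span of the gene. Entries were found for 5 of the 10 genes, and those of Fbn1 and Ltbp2 lie within the gene's own span and are not shown. The other genes are Eln, Fbln1, Emilin1, Mfap4 and Lox. Each sequence below holds the 200 bases before the outermost annotated start of the gene, 5' to 3' on the minus strand, at chr6:26177347-26177546 for Ltbp1 and chr8:67612225-67612424 for Loxl1. Capitals mark matches on either strand to CCAAT, to the cyclic AMP response element TGACGTCA or to CAGAC, the core of the Smad-binding CAGA box, none of which overlap.
Ltbp1: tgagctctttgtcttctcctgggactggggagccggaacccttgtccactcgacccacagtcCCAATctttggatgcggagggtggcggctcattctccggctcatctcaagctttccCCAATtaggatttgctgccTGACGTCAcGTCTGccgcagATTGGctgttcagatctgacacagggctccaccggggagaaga
Loxl1: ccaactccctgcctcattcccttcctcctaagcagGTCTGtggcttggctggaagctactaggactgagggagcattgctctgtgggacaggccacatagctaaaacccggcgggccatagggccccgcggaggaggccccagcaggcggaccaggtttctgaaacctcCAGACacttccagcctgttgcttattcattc
Ltbp1 has 3 matches to CCAAT, 1 to TGACGTCA and 1 to CAGAC, and Loxl1 has 2 to CAGAC. Over the 200 bases before the start in all 33469 promoters of the table, 29.2% hold CCAAT, 1.46% hold TGACGTCA and 35.6% hold CAGAC. Neither window matched the AP-1 motif TGANTCA (4.97% of all promoters), the Sp1 motif GGGCGG (28.6%), TATAAA (10.4%) or the E-box CACGTG (4.68%). The motif list was drawn up after the sequences had been seen.

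The A-CRF arrays were not alike across the 10 genes. On A-CRF 4, 9 of the 10 genes lay above every Control array, on A-CRF 1 the number was 7, and on A-CRF 7 it was 3. It was 5 on each of the other A-CRF arrays. A-CRF 4 and A-CRF 1 are also the A-CRF arrays with the large GAPDH difference. Below every Control array lay 3 genes on A-CRF 2, 2 on A-CRF 1, 0 on A-CRF 5 and A-CRF 7, and 1 on each of the rest. The share of all genes outside the Control range on each array was not counted, so these numbers have no background beside them. Groups without overlap, all higher in A-CRF, were found for 3 of the 10 genes (Fbn1, Ltbp2 and Loxl1), against 1.46% of all genes. Among Control arrays, Control 3 was the lowest for Eln, Fbn1, Fbln5, Ltbp1, Mfap4, Lox and Loxl1.

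A score of 11 circadian clock genes separated the A-CRF arrays, from -1.13 to -0.44 on A-CRF 1 to 5 and from 0.44 to 0.80 on A-CRF 6, 7 and 8, against -0.40 to 0.83 in Control. Lox was lowest in A-CRF on A-CRF 6, 7 and 8, at 10.64, 10.39 and 10.59 on the first probe set and 10.38, 10.42 and 10.41 on the second. Fbn1 on these arrays, at 10.33, 10.32 and 10.37, was within the values of the other A-CRF arrays. With the score as a covariate the change was 0.52 ± 0.09 for Fbn1 (SE, adjusted p = 0.038), 0.86 ± 0.21 for Ltbp2 (SE, adjusted p = 0.089) and 0.58 ± 0.13 for Lox (SE, adjusted p = 0.077). It was 0.39 ± 0.09 for Loxl1 (SE, adjusted p = 0.068) and 0.34 ± 0.10 for Ltbp1 (SE, adjusted p = 0.18), so that Fbn1 alone of the 10 genes passed. The slope on the score itself passed for 0 of the 14 probe sets in limma, against 0.0677% of all probe sets. At an unadjusted p under 0.05 it was negative for 5 of the 14 and positive for none, against 6.86% of all probe sets with a negative slope.

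**Figure D4:**
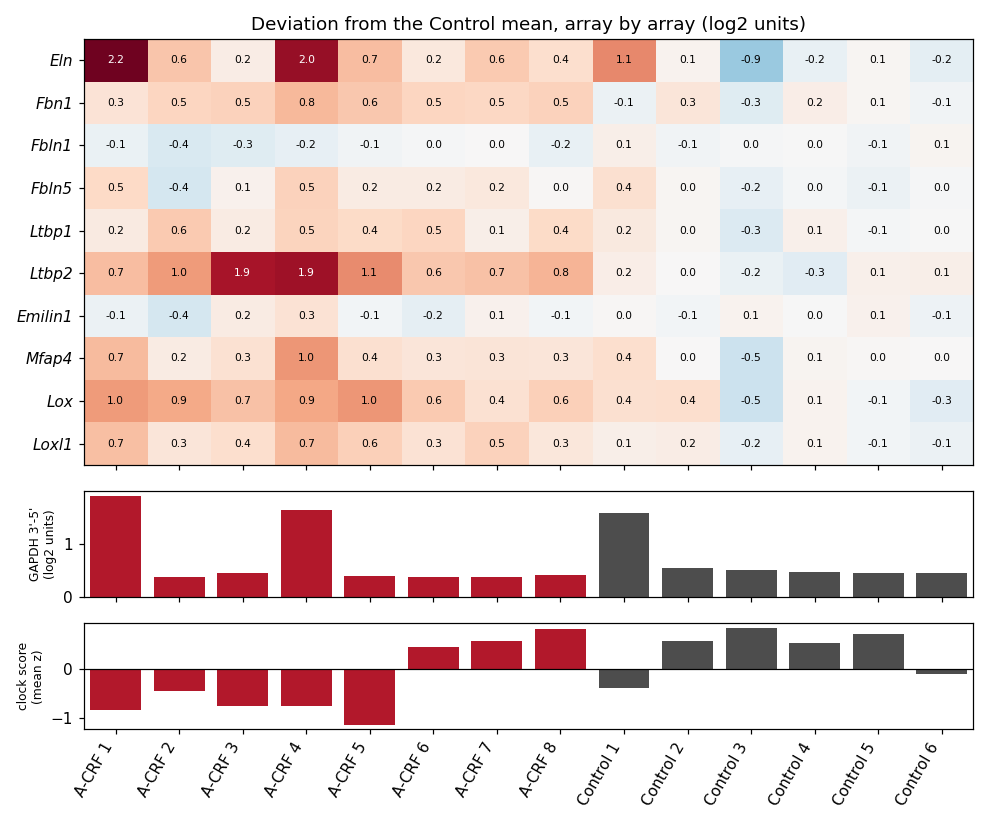
Deviation of each gene from its Control mean on every array (log2 units, number and colour in each cell), above the GAPDH 3' minus 5' difference (log2 units) and the clock score (mean z) of the same arrays, A-CRF in red and Control in grey. Eln is reddest on A-CRF 1, A-CRF 4 and Control 1, Ltbp2 on A-CRF 3 and A-CRF 4, and Fbn1 is raised on each A-CRF array.

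Markers of other cell types of the wall moved as follows. Among all genes 1.93% were higher and 1.06% lower, and at an unadjusted p under 0.05 9.74% and 8.88%. Of all probe sets 1.26% were higher in the fit on group alone and 1.82% without A-CRF 1, A-CRF 4 and Control 1. The share was 1.98% with the GAPDH covariate and 0.303% with the clock score covariate. In either direction 636 probe sets passed in the fit on group alone, 1041 with the GAPDH covariate and 1457 with array weights. Of 15 macrophage markers 10 were higher and 0 lower (9 higher without A-CRF 1, A-CRF 4 and Control 1, and 5 with the clock score covariate), and their mean was 7.11 to 7.49 in A-CRF and 6.75 to 6.91 in Control. It was highest on A-CRF 3 (7.49) and A-CRF 4 (7.42), the arrays with the highest Ltbp2. Of 9 adventitial fibroblast markers none passed in limma (3 at an unadjusted p under 0.05, all higher), with means of 8.53 to 8.86 in A-CRF and 8.50 to 8.62 in Control. All 9 had a positive change, against 48.8% of all genes. With the GAPDH covariate 1 of the 9 was higher and 0 lower, and likewise with array weights. Of 10 smooth muscle markers 1, Myh11, was lower (3 with the GAPDH covariate, 2 with array weights and 0 with the clock score covariate). At an unadjusted p under 0.05, 3 were lower and 1 higher, and 2 of the 10 had a positive change, with means over the list of 9.53 to 9.96 in A-CRF and 9.74 to 10.32 in Control. None of 7 endothelial, 7 white adipocyte, 6 chondrocyte and 6 T cell markers passed in limma, with 1, 0, 2 and 0 of them higher at an unadjusted p under 0.05 and none lower. With array weights 1 chondrocyte marker was higher. In whole aorta a change in the number of cells of a type and a change in RNA per cell cannot be told apart, and the part of these cells in the changes of the 10 genes was not tested.

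Related genes of the fibre and its turnover were taken from 5 lists. The counts in each list stand beside 1.93% higher and 1.06% lower among all genes. Of all probe sets 1.26% were higher in the fit on group alone and 1.82% without A-CRF 1, A-CRF 4 and Control 1. With the GAPDH covariate 1.98% were higher, and with the clock score covariate 0.303%. Of 19 other measured elastic fibre and microfibril genes, 1 was higher and 18 did not pass, with a median of 0.05 log2 units. Without A-CRF 1, A-CRF 4 and Control 1, 3 were higher (Efemp1, Efemp2 and Mfap3) and 1 lower (Adamtsl4), and these names other than Efemp1 were picked after their values were seen. With the GAPDH covariate and with array weights the counts were likewise 3 higher and 1 lower. Calls over all probe sets, in either direction, also rose, from 636 in the fit on group alone. They numbered 898 without those 3 arrays, 1041 with the GAPDH covariate and 1457 with array weights. The 1 gene higher in the fit on group alone was Efemp1, which encodes fibulin-3. Efemp1 read 7.27 in A-CRF and 6.80 in Control (means of 8 and 6 arrays), a change of 0.46 ± 0.08 (SE, limma adjusted p = 0.010). Its arrays read 7.02 to 7.44 in A-CRF and 6.55 to 7.06 in Control, with overlap at A-CRF 7 (7.02) and Control 4 (7.06). Its call ended with the clock score as a covariate (adjusted p = 0.059).

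Among 9 measured relatives of lysyl oxidase and genes of its processing and copper supply, 2 were higher and 7 did not pass, with a median of 0.20. Loxl2, a lysyl oxidase-like enzyme, read 5.98 to 6.27 in A-CRF and 5.55 to 5.95 in Control without overlap, a change of 0.36 ± 0.06 (SE, adjusted p = 0.0091). Its Control mean, 5.75, lay less than 1 log2 unit above the lowest value, 4.82. The change was 0.28 with an offset of 16 added to linear values and 0.49 with it subtracted. A second Loxl2 probe set had a change of 0.02 ± 0.02 (SE, adjusted p = 0.74). Postn, which encodes periostin, a matricellular protein that promotes activation of lysyl oxidase by Bmp1, changed by 0.91 ± 0.22 (SE, adjusted p = 0.047) with values of 10.44 to 11.68 in A-CRF and 9.53 to 10.61 in Control. Its call was lost in 11 of the 14 fits without 1 array (highest adjusted p = 0.10) and without A-CRF 1, A-CRF 4 and Control 1 (0.070).

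Of 17 measured genes of proteases that act on elastic fibres and of protease inhibitors, 7 were higher, 0 were lower and 10 did not pass, with a median of 0.28. On dropping any of A-CRF 5 and Control 2, 5 and 6 the count was 3, and on dropping any of A-CRF 3 and Control 1 and 4 it was 4. It was 1 with the clock score as a covariate and 5 without A-CRF 1, A-CRF 4 and Control 1. The 7 were the proteases Mmp2, Mmp14, Ctsb, Ctsk, Ctsl and Ctss and the inhibitor Cst3 (0.28 ± 0.06, SE, limma adjusted p = 0.036). The inhibitors Timp1 (0.55, adjusted p = 0.060) and Timp2 (0.36, 0.071) did not pass, nor did Timp3, Timp4, Serpina1 and A2m. Ctsb, Ctsl and the inhibitors were named after their values were seen. The largest change of the list was that of Ctsk, the elastolytic cathepsin K, which read 7.74 to 8.87 in A-CRF and 6.88 to 7.48 in Control, a change of 0.97 ± 0.17 (SE, adjusted p = 0.014). Ctss, the elastolytic cathepsin S, read 8.28 to 8.97 in A-CRF and 7.73 to 8.04 in Control, a change of 0.65 ± 0.09 (SE, adjusted p = 0.0046), and is also one of the 15 macrophage markers. Groups did not overlap for either cathepsin. Mmp2, which cleaves elastin and gelatin, changed by 0.59 ± 0.12 (SE, adjusted p = 0.021), and Mmp14, the membrane protease that activates it, by 0.55 ± 0.13 (SE, adjusted p = 0.047). A second Mmp14 probe set gave 0.36 ± 0.10 (SE, adjusted p = 0.080), and a second Mmp2 probe set gave -0.01 ± 0.03 (SE, adjusted p = 0.97). The call of Mmp14 was lost in 10 of the 14 fits without 1 array (highest adjusted p = 0.11), and that of Mmp2 without Control 5 or Control 6 (highest 0.051).

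None of 16 measured TGF-beta genes passed in limma, with 4 higher and 1 lower at an unadjusted p under 0.05 and a median of 0.04. The largest change there was that of Smad7, an inhibitor of the pathway, at 0.41 ± 0.15 (SE, adjusted p = 0.18), and it passed without A-CRF 1, A-CRF 4 and Control 1 (0.57, adjusted p = 0.048). So did Tgfbr1, the type I receptor of the pathway, at 0.47 ± 0.09 (SE, adjusted p = 0.020), a gene named after its values were seen. With array weights 2 TGF-beta genes were higher and 1 lower. In that fit 1457 of all probe sets passed in either direction, against 636 in the fit on group alone. The other probe sets of Smad7 had changes of 0.17 ± 0.09 and 0.09 ± 0.04 (SE, adjusted p = 0.44 and 0.31). None of 11 receptor genes for elastic fibre proteins passed in limma either, with 5 higher and 1 lower at an unadjusted p under 0.05 and a median of 0.10. With the GAPDH covariate Rpsa was lower (-0.20, limma adjusted p = 0.022). With array weights Rpsa was lower (-0.23, adjusted p = 0.017) and Itgav, also in the TGF-beta list, higher (0.28, adjusted p = 0.040). Both were named after their values were seen. In the fit on group alone the largest change of a receptor gene was that of Ctsa, the protective protein of the elastin receptor complex. It was 0.35 ± 0.11 (SE, adjusted p = 0.11).

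**Figure D5:**
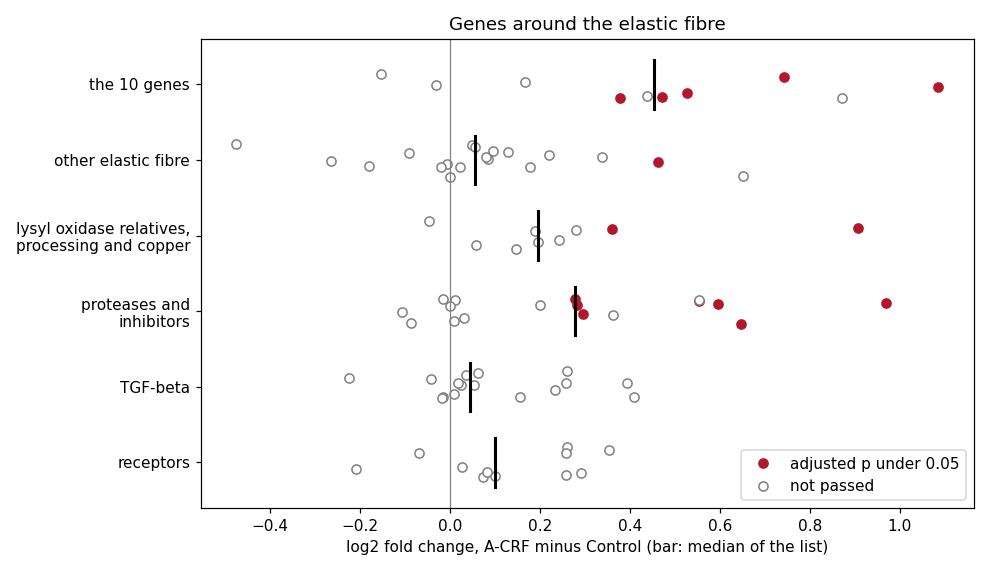
Log2 fold changes, A-CRF minus Control, of the 10 genes and of the measured genes of 5 related lists, each circle 1 gene, filled where the adjusted p is under 0.05, with the median of each list as a bar. The 10 genes have a median of 0.45 and the proteases and inhibitors 0.28, and the TGF-beta and receptor lists hold no filled circle.

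The genes most like each higher member were found by Pearson's r between deviations from the group means over the 14 arrays, among 9307 genes with a mean above the median probe set. Ltbp2 was most like Cnp (r = 0.98), Igfbp2 (r = 0.965) and Ctsa (r = 0.943). Igfbp2, which encodes a binding protein of insulin-like growth factors, read highest on A-CRF 3 (7.51) and A-CRF 4 (7.34), as Ltbp2 did, and 6.26 to 6.67 on the rest of A-CRF, against 5.85 to 5.99 in Control. Its change was 0.73 ± 0.19 (SE, adjusted p = 0.065). Ctsa read 9.72 and 9.77 on A-CRF 3 and A-CRF 4, 9.07 to 9.39 on the rest of A-CRF and 8.95 to 9.01 in Control. Loxl1 was most like another LTBP gene, Ltbp3 (r = 0.879), then Tmem132a (0.863) and Helz (0.857). Fbn1 was most like Gfra2 (0.842), Mdfi (0.832) and Nthl1 (0.828), and Ltbp1 was most like Sec61b (0.863), Slc6a7 (0.828) and Cald1 (0.827). For Lox the genes were Scnn1g (0.91), Dolpp1 (0.907) and Zfr2 (0.906), of which Scnn1g read 5.66 to 5.84 in A-CRF and 5.68 to 5.83 in Control. In A-CRF, Mdfi read 5.86 to 6.06, Slc6a7 5.78 to 5.98, Gfra2 5.95 to 6.18 and Nthl1 6.02 to 6.08. Dolpp1 read 5.79 to 6.13 there, Zfr2 5.98 to 6.14 and Helz 6.0 to 6.24. The lowest value of any probe set was 4.82. Sec61b read 9.15 to 9.38 in A-CRF and Cald1 10.51 to 10.82. All points share the same 14 arrays, including the 3 with a large GAPDH difference. The genes named are the 3 highest of 9307 for each member. How high r runs by chance in such a choice was not tested, so these names are a listing and no evidence of a link.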

How the data were processed

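The table deposited by the authors holds 1 value per probe set and array, used as log2 values. Base 2 was taken from how far the values range. The submitters' processing notes name PLIER, which summarises the probes of a probe set. Not given in the sources used here are its version, how background was corrected, how arrays were normalized and whether an offset was added. Of 31099 probe sets, 57 controls of the manufacturer were left out. The platform annotation gave 1 symbol for 20826 of the rest, several for 436 and none for 9780. Group differences (A-CRF minus Control) were fitted over all 14 arrays in limma 3.58.1 under R 4.3.3, using lmFit then eBayes, two-sided, group being the only factor. Adjusted p-values are Benjamini-Hochberg over all 31042 probe sets, with a threshold of 0.05. Arrays have no depth, so their number limits the precision. The fit was tested on simulated data. The 10 genes, the related lists and the markers were chosen with earlier results of these data known. Text names the 10 genes, up to 4 called genes per related list with the largest change (otherwise the 1 with the largest change), and the 3 genes most like each called member (single symbol, no LOC or RGD symbol). The clock score is the mean z over 7 genes with positive and 4 with negative sign. The 13 alternatives beside leaving out each array are described with the limits. Coordinates are given for promoters alone, since no build is named for the array.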

Additional observations from a re-analysis of the deposited data

Results flagged for a closer look

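By Dixon's criterion, which asks whether the most extreme array of a group stands off from the rest, 74 groups of values were examined and 2 stood out. Chance alone gives about 1 in 20. Mmp2 read 10.54 on A-CRF 4, with the next A-CRF array at 10.03, and Gfra2, one of the genes most like Fbn1, read 6.18 on A-CRF 4, with the next at 6.0. A-CRF 4 is one of the arrays with a large GAPDH difference, and the part of that in either value was not tested. None of the 14 probe sets of the elastic fibre and lysyl oxidase genes stood out in this way.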

How the results depend on the processing

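The alternatives were quantile normalization, centring on array medians, an offset of 16 added to or subtracted from linear values, dropping the dimmest 40% of probe sets, eBayes with trend and robust options, array weights, averaging probe sets by gene, dropping probe sets with a suffix for several transcripts, the fat marker, clock score or GAPDH covariate, leaving out A-CRF 1, A-CRF 4 and Control 1 together, and leaving out each array. None of the named genes changed direction while called in any of these fits, and other genes were not followed one by one. The count of called genes among the 10 was 5, and 3 to 5 when 1 array was left out. It fell to 1 with the clock score covariate. Of all probe sets 636 were called, 307 (without Control 5) to 979 (without A-CRF 1) when 1 array was left out, with counts also moving by over 1.5 times without A-CRF 3 (416), A-CRF 5 (352), Control 2 (420), Control 4 (345) or Control 6 (365), 1457 with array weights, 132 with the clock score and 1041 with the GAPDH covariate. Of the related list genes 10 were called, 5 to 15 when 1 array was left out (fewest, 5, on dropping A-CRF 5 or any of Control 2, 5 and 6; Control 1 or 4 dropped gave 6), 19 with array weights, 2 with the clock score and 16 with the GAPDH covariate. The causes were not tested. With the clock score covariate Loxl2 and Ctss kept their calls, and Efemp1, Postn, Ctsk, Mmp2 and Mmp14 did not. Ltbp1 and Postn also lost their calls with the added offset and with the fat marker covariate, and Mmp14 with the added offset. The median of all probe sets moved by under 0.01 log2 units in every setting. No paired analysis was possible because the labels give no replicate numbers shared between groups.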
